A study of Mus musculus with 6 samples.

Results

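The genes described here make the building blocks of RNA and DNA: 33 mouse genes for purine, pyrimidine and deoxynucleotide synthesis and for the folate cycle that feeds them. They were chosen by name, as enzymes and carriers of these routes, and all 33 were found among the 23337 genes of the deposited count table. RNA was sequenced from C57BL6 bone marrow granulocyte-monocyte progenitors with ER-HOXA9, a fusion of the estrogen receptor and the homeobox factor HOXA9 that keeps such progenitors immature and dividing while beta-estradiol is present. All groups grew in RPMI medium with serum, 4 mM glutamine, stem cell factor and 0.5 µM beta-estradiol, so ER-HOXA9 was on in every library. The first group received 3 drugs together until day 3, namely GSK-LSD1 at 200 nM, which blocks the histone demethylase LSD1, mercaptopurine at 5 µM, an analogue of purine bases, and cerulenin at 5 µM, which blocks fatty acid synthase. The second group received the solvent DMSO (vehicle) until day 3, and the third was sampled without treatment at day 0. Each group had 2 biological replicates, and single drugs were not among the samples used here. The promoter of the fusion and whether the cells descend from 1 clone are not stated in the labels.

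Purine nucleotides are assembled step by step on a sugar phosphate (PRPP) until inosine monophosphate (IMP) is reached, and IMP is then turned into AMP or GMP. Pyrimidines are built as a ring first and joined to PRPP afterwards. Folate carries single carbon units, released from serine, into the purine ring and into thymidylate, and dividing progenitors need all of these routes. Mercaptopurine is converted in the cell to an analogue of IMP, and its methylated form is known to inhibit the first committed enzyme of purine synthesis. Inhibitors of the pyrimidine enzyme DHODH are known to release ER-HOXA9 progenitors from their block in differentiation.

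Total counts ranged from 11305666 to 16948697 per library, and the count of a member in a library ranged from 124 (Ggh) to 6927 (Cad). Levels are normalised CPM, counts scaled to the library total after trimmed-mean (TMM) correction. A gene is said to have risen or fallen where its adjusted p was under 0.05 in the edgeR quasi-likelihood test, with Benjamini-Hochberg adjustment over all 11283 genes tested. Log2 changes are ± SE. The labels do not say that replicates came from separate animals or thaws, so the p-values measure the spread between these libraries. All 12 of 12 progenitor markers averaged at least 10 CPM in every group, and markers of T and NK cells stayed under 1 CPM. Summed progenitor markers were 11403.4 and 11953.8 CPM with the drugs, 9003.5 and 9235.6 CPM with vehicle, and 7971.8 and 8304.4 CPM at day 0. Against vehicle, Cebpe (log2 change 1.21), Flt3 (0.90), Csf2rb (0.63), Mpo (0.54), Fcgr3 (0.52) and Kit (0.33) rose. Ctsg (-0.37) and Cebpa (-0.37) fell, and the rest of that list did not pass the test. With the drugs, the summed level of 12 mature neutrophil markers was 3504 and 3820.9 CPM, against 16.7 and 21.8 CPM with vehicle and 15.5 and 14.1 CPM at day 0. Nearly all of it with the drugs was Mmp8, at 3484.3 and 3799.9 CPM, against 7.9 and 12.8 CPM with vehicle. Of the 12, 7 stayed under 1 CPM in all libraries, and Camp and Retnlg had 0 counts. The sum thus shows a rise of 1 gene and not of the list. Of 14 monocyte and macrophage markers, 8 averaged at least 10 CPM with the drugs, against 2 with vehicle and 2 at day 0 (summed level 1169.4 and 1258.4 CPM, 585 and 543.1 CPM, and 845.2 and 880.6 CPM), and C1qa and C1qc were at 0. Most of that sum was Ccr2, at 768.6 and 827.3 CPM with the drugs, 542.9 and 502.7 CPM with vehicle, and 793.4 and 834.7 CPM at day 0. Cx3cr1 of the same list fell with the drugs against vehicle (-1.45 ± 0.404, adjusted p = 0.0159). Summed levels of 9 mast cell and basophil markers were 1380.9 and 1288.5 CPM with the drugs, 568.3 and 553.2 CPM with vehicle, and 1166.1 and 981.3 CPM at day 0, with Fcer1a, Tpsb2 and Tpsab1 at 0. Most of that sum was Cpa3 (1189.1 and 1105.5 CPM with the drugs). Against vehicle, Hdc (2.84 ± 0.0994, adjusted p = 3.49e-10) and Gata2 (0.51 ± 0.0674, adjusted p = 8.71e-05) of the same list also rose, and Mcpt8 fell (-0.30 ± 0.106, adjusted p = 0.0469). Summed B cell markers were 55.3 and 53.8 CPM with the drugs, 109.2 and 100.4 CPM with vehicle, and 93.8 and 100.5 CPM at day 0. Against vehicle, Igll1 (-1.78 ± 0.15, adjusted p = 1.56e-06), Ebf1 (-0.97 ± 0.106, adjusted p = 1.64e-05) and Cd79b (-0.45 ± 0.151, adjusted p = 0.0365) fell, while Cd79a rose (0.84 ± 0.25, adjusted p = 0.0212). Erythroid and megakaryocyte markers were 17.9 and 14.1 CPM with the drugs, 13.9 and 18 CPM with vehicle, and 41.7 and 30.7 CPM at day 0, with Hbb-b1, Hba-a1 and Gp1bb at 0. Most of that sum was Itga2b (16.7 and 12.6 CPM with the drugs, 11.9 and 15.3 CPM with vehicle, 37.3 and 28 CPM at day 0). Stromal and endothelial markers were 717.7 and 712.8 CPM with the drugs, 475 and 448.2 CPM with vehicle, and 485.7 and 516.1 CPM at day 0, with Col3a1, Cdh5 and Kdr at 0. Nearly all of that sum was Vim (474.5 and 470.6 CPM with the drugs) and Pecam1 (240.8 and 240.1 CPM). These 2 were the only genes of the list to average at least 10 CPM in any group, so the sum does not show stromal cells. The part of these shifts in the results below was not tested. In such bulk RNA, fewer cells of a type and less RNA per cell cannot be told apart.

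Most of the synthesis genes were lower with the drugs, by modest amounts. Compared with vehicle, 18 of the 33 fell, 3 rose and 12 did not pass the test, while 31.9% of all tested genes were called, 13.8% lower and 18.1% higher. The median log2 change of the 33 was -0.24, against 0 over all tested genes, and single changes ran from -0.84 (Slc19a1) to 0.45 (Atic). In 22 of the 33, both drug libraries lay below the other 4 libraries, a pattern found in 25% of all tested genes, and in 4 they lay above, found in 26.9%. Summed over the 33 genes per kilobase of transcript, the level was 1498.8 and 1509.9 CPM per kilobase with the drugs, 1675.6 and 1665.1 with vehicle, and 1675.7 and 1718 at day 0, with no overlap between the drug libraries and the rest. The count of falls rests on both drug libraries: it was 10 without drug replicate 1 and 11 without drug replicate 2, in fits where falls over all tested genes also went down, to 583 and 697 against 1560.

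**Figure D1:**
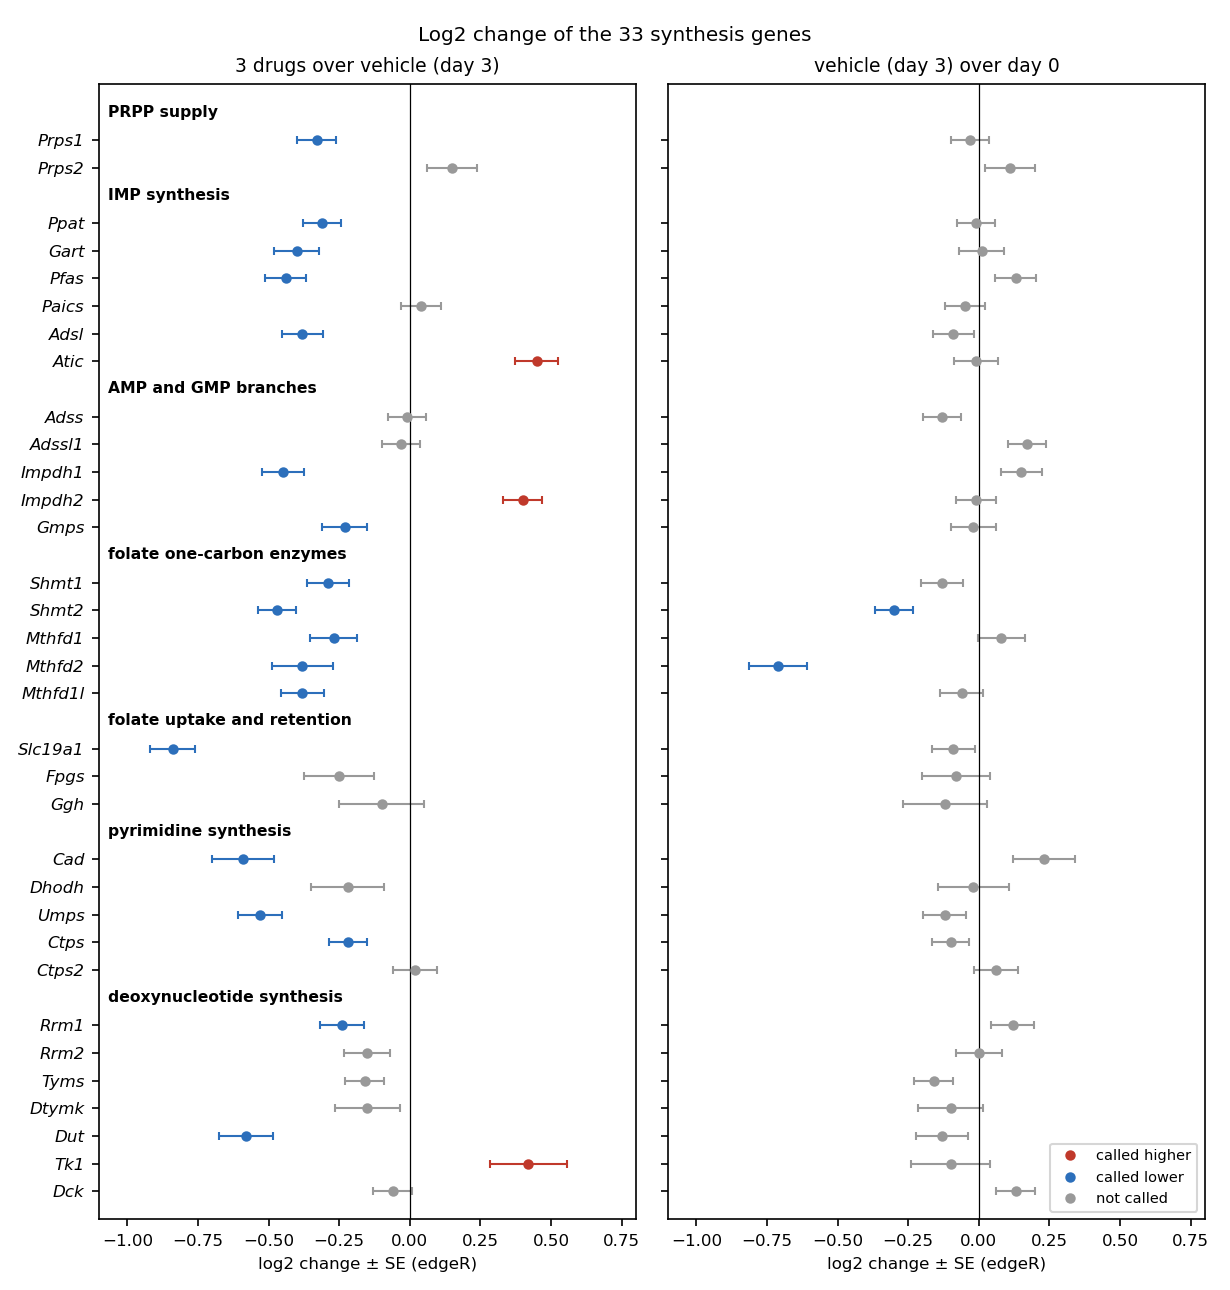
Log2 change ± SE of each of the 33 genes on the horizontal axis, grouped by role, for the 3 drugs over vehicle (left) and for vehicle over day 0 (right), from the edgeR fit of all 6 libraries. Blue marks genes that fell, red genes that rose and grey genes that did not pass the test, with 18 falls and 3 rises on the left and 2 falls on the right.

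The carrier that brings folate into the cell changed most. Slc19a1, the reduced folate carrier (chromosome 10, 77032739 to 77050432 on mm10), had 36.7 and 37.5 CPM with the drugs, against 69.0 and 63.9 CPM with vehicle and 73.0 and 68.1 CPM at day 0. Both drug libraries were far below the other 4. It fell by 44.2% (log2 change -0.84 ± 0.0794, adjusted p = 4.36e-06), the smallest p of the 33 genes in this comparison. Fpgs, which adds the glutamate tail that keeps folate inside the cell, had 14.6 and 15.3 CPM with the drugs, against 18.3 and 17.2 CPM with vehicle and 20.6 and 16.9 CPM at day 0. Its drug libraries were the 2 lowest of the 6, but the change against vehicle did not pass the test (-0.25 ± 0.125, adjusted p = 0.149). Ggh, which removes that tail, averaged 10.2 ± 0.346 CPM with the drugs and 10.9 ± 0.951 CPM with vehicle (SD, n = 2 each), and these groups overlapped.

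All 5 folate enzymes that move single carbons fell with the drugs. Shmt2, the mitochondrial enzyme that takes a carbon from serine (chromosome 10, 127517123 to 127522444), had 149.6 and 155.4 CPM with the drugs, against 213.8 and 208.0 CPM with vehicle and 261.1 and 257.6 CPM at day 0. The 3 groups stood apart, with the drugs lowest and day 0 highest. Shmt2 fell by 27.7% against vehicle (log2 change -0.47 ± 0.0686, adjusted p = 0.000206). Mthfd1l, which releases formate from the mitochondrion, had 99.2 and 96.9 CPM with the drugs, against 132.5 and 122.9 CPM with vehicle and 125.5 and 141.6 CPM at day 0, so only the drug libraries stood apart (-0.38 ± 0.0772, adjusted p = 0.00233). Mthfd2, the mitochondrial dehydrogenase between these enzymes (chromosome 6, 83305704 to 83317604), had 35.2 and 35.7 CPM with the drugs, 44.7 and 47.7 CPM with vehicle, and 84.1 and 66.1 CPM at day 0. It fell against vehicle (-0.38 ± 0.109, adjusted p = 0.0177), though the adjusted p was 0.1 when drug replicate 1 was left out, 0.0854 for drug replicate 2 and 0.07 for vehicle replicate 2. The cytosolic enzymes Shmt1 (-0.29 ± 0.0746) and Mthfd1 (-0.27 ± 0.0835) fell as well. Leaving out any one of the 4 day 3 libraries ended the call of Mthfd1 (adjusted p 0.056 to 0.243), and leaving out drug replicate 2 that of Shmt1 (0.15).

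Of the 6 enzymes from PRPP to IMP, 4 fell, 1 rose and 1 did not pass the test. Pfas, an enzyme of this chain (chromosome 11, 68985701 to 69008460), had 133.9 and 142.3 CPM with the drugs, against 190.8 and 182.9 CPM with vehicle and 164.8 and 178.0 CPM at day 0. The drug libraries were again the 2 lowest (-0.44 ± 0.0724, adjusted p = 0.000564). Ppat, the committed and feedback-controlled enzyme at the head of the chain, fell by 19.4% (-0.31 ± 0.0679, adjusted p = 0.00379). The adjusted p of Ppat was 0.0545 when drug replicate 1 was left out and 0.0608 for drug replicate 2. Gart, an enzyme of several steps, one of which uses folate, fell by 24.4% (-0.40 ± 0.0803), and Adsl, which also acts in the AMP branch, fell by 23.2% (-0.38 ± 0.0729), with an adjusted p of 0.0511 once drug replicate 1 was left out. Atic, which closes the ring with a folate-borne carbon (chromosome 1, 71557156 to 71579403), went the other way. It had 229.2 and 243.6 CPM with the drugs, against 174.5 and 172.6 CPM with vehicle and 165.2 and 185.8 CPM at day 0, so its drug libraries were the 2 highest of the 6. Atic rose by 36.2% (0.45 ± 0.0764, adjusted p = 0.000726).

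Paics, which follows Gart in the chain, had 376.4 and 368.1 CPM with the drugs, against 366.2 and 359.9 CPM with vehicle and 383.4 and 367.8 CPM at day 0, all 6 within a narrow band (0.04 ± 0.0712, adjusted p = 0.741). Ppat, which was chosen for this comparison after the values were seen, had 139.2 and 137.5 CPM with the drugs, against 173.9 and 169.5 CPM with vehicle and 168.6 and 178.2 CPM at day 0. The pair is of interest because Ppat and Paics lie head to head on chromosome 5, Ppat on the minus strand (76913249 to 76951578) and Paics on the plus strand (76951411 to 76967505). Their exons share 168 bases, which are 4.2% of the Ppat and 7.1% of the Paics exon length, and reads from those bases cannot be assigned without strand. RefSeq places their start sites 276 bases apart, on opposite strands, and the windows printed below do not overlap. Because the genes overlap at their starts, each window lies inside the span of the other gene. The bases between the windows were not searched.

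The promoters of these neighbours and of Atic are printed because the genes are close in the pathway but differed in response. Each runs from 250 bases before to 50 bases after the RefSeq start site, on the gene's own strand, from RefSeq on build GRCm38.p6. Capitals mark exact matches, on either strand, to the E-box CACGTG, which MYC and MAX can bind, or to the E2F element TTTNNCGC. Ppat is at chr5:76951529-76951828 (minus strand), Paics at chr5:76951052-76951351 (plus strand) and Atic at chr1:71556906-71557205 (plus strand).
Ppat: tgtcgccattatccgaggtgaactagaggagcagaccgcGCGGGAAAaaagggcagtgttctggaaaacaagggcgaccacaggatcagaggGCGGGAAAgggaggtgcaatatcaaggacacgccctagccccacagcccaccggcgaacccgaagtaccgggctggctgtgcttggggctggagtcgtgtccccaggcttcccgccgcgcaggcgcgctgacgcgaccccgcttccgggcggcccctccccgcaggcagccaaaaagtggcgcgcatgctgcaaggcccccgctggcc
Paics: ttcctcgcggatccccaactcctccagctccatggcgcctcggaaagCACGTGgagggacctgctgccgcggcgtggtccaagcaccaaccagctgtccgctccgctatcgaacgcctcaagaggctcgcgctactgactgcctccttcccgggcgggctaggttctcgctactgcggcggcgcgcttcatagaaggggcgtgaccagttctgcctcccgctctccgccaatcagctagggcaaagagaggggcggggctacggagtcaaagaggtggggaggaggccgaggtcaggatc
Atic: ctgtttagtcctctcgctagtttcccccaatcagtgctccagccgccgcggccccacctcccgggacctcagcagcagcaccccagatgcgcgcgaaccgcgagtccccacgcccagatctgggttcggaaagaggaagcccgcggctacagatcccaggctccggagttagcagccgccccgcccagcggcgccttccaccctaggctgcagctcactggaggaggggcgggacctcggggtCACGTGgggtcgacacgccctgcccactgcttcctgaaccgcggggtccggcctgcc
The Ppat window holds 2 E2F elements, which begin 211 and 158 bases before its start site, and no E-box. The Paics window holds 1 E-box 203 bases before its start site, and the Atic window 1 E-box 7 bases before. The RefSeq start of Paics lies 109 bases from the start that the count table gives.

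The enzymes that turn IMP into GMP split into a fall and a rise. IMP dehydrogenase, the rate-limiting step toward guanine nucleotides, is made from a pair of genes. Impdh1 (chromosome 6, 29200440 to 29212271) had 193.3 and 192.6 CPM with the drugs, against 277.1 and 251.3 CPM with vehicle and 234.2 and 242.4 CPM at day 0. Impdh2 (chromosome 9, 108560501 to 108565566) had 295.2 and 279.3 CPM with the drugs, against 216.8 and 220.1 CPM with vehicle and 218.7 and 220.2 CPM at day 0. The drug libraries were thus the 2 lowest of the 6 for Impdh1 and the 2 highest for Impdh2. Impdh1 fell by 27% (-0.45 ± 0.0737, adjusted p = 0.000476) and Impdh2 rose by 31.5% (0.40 ± 0.0696, adjusted p = 0.000877). Per kilobase, Impdh1 made up 30.6% and 31.8% of the summed level of the pair with the drugs, against 46.3% and 43.5% with vehicle and 42% and 42.6% at day 0. With 2 libraries a group the shares carry no test of their own.

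The promoter windows of the pair are at chr6:29212248-29212547 (minus strand) for Impdh1 and chr9:108560186-108560485 (plus strand) for Impdh2, printed with the same marking. Of the Impdh1 windows in RefSeq, the one nearest to the start in the count table, at 26 bases, is shown.
Impdh1: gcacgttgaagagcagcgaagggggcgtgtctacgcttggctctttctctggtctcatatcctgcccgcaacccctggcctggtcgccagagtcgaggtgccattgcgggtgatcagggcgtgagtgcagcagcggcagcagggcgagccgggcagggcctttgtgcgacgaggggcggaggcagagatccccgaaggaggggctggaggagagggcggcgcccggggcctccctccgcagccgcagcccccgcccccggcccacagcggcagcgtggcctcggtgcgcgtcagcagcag
Impdh2: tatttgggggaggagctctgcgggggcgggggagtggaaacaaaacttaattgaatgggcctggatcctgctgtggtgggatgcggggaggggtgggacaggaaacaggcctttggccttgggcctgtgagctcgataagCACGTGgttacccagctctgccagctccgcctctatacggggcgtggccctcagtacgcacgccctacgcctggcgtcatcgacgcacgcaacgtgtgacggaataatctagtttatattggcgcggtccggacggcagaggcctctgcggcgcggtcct
The Impdh2 window holds 1 E-box, 110 bases before its start site, and the Impdh1 window holds none of the motifs searched. The E-boxes were looked for in all members. Of 30 genes with a RefSeq promoter, 5 had an E-box (16.7%), against 8.09% of all 27025 genes of the RefSeq promoter table. That table also holds genes that were not tested here, so the counts among tested genes, given below, are the nearer comparison for each motif. Of those 5, Atic and Impdh2 rose and Paics, Tyms and Dtymk did not pass the test, while of the 25 without an E-box 17 fell and 1 rose. Of all 8068 tested genes with a RefSeq promoter, 980 had an E-box, and 16.2% of these fell and 17.8% rose, against 13.4% and 18.4% of those without. E2F elements were found in 5 of the 30 (Prps1, Prps2, Ppat, Shmt2 and Tyms), against 5.93% of all genes. Of these 5, 3 fell and 0 rose, and of the 25 without the element 14 fell and 3 rose. Among the 824 of 8068 tested genes with an E2F element 13.7% fell, against 13.7% of those without. The ATF4 element TGATGNAA was found in Prps1 alone among the 30 (3.33%), in 4.51% of all genes and in 226 of the 8068 tested genes. A match is a run of letters and not a measured binding site.

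Gmps, which makes GMP from the product of IMP dehydrogenase, fell by 14.9% (-0.23 ± 0.0795, adjusted p = 0.0396). Leaving out any one of the 4 day 3 libraries ended that call (adjusted p 0.0605 to 0.258), as did DESeq2 (0.0742). The adenylosuccinate synthases of the AMP branch did not pass the test against vehicle. Adssl1, known as the muscle form, had 105.7 and 107.6 CPM with the drugs, against 106.3 and 112.0 CPM with vehicle and 98.7 and 95.1 CPM at day 0 (drugs over vehicle -0.03 ± 0.067, adjusted p = 0.745). Its day 3 libraries were all above day 0, without passing the test for vehicle over day 0 (0.17 ± 0.0672, adjusted p = 0.138). Adss, the widely expressed form, averaged 100.1 ± 2.39 CPM with the drugs and 100.6 ± 2.09 CPM with vehicle (SD, n = 2 each).

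**Figure D2:**
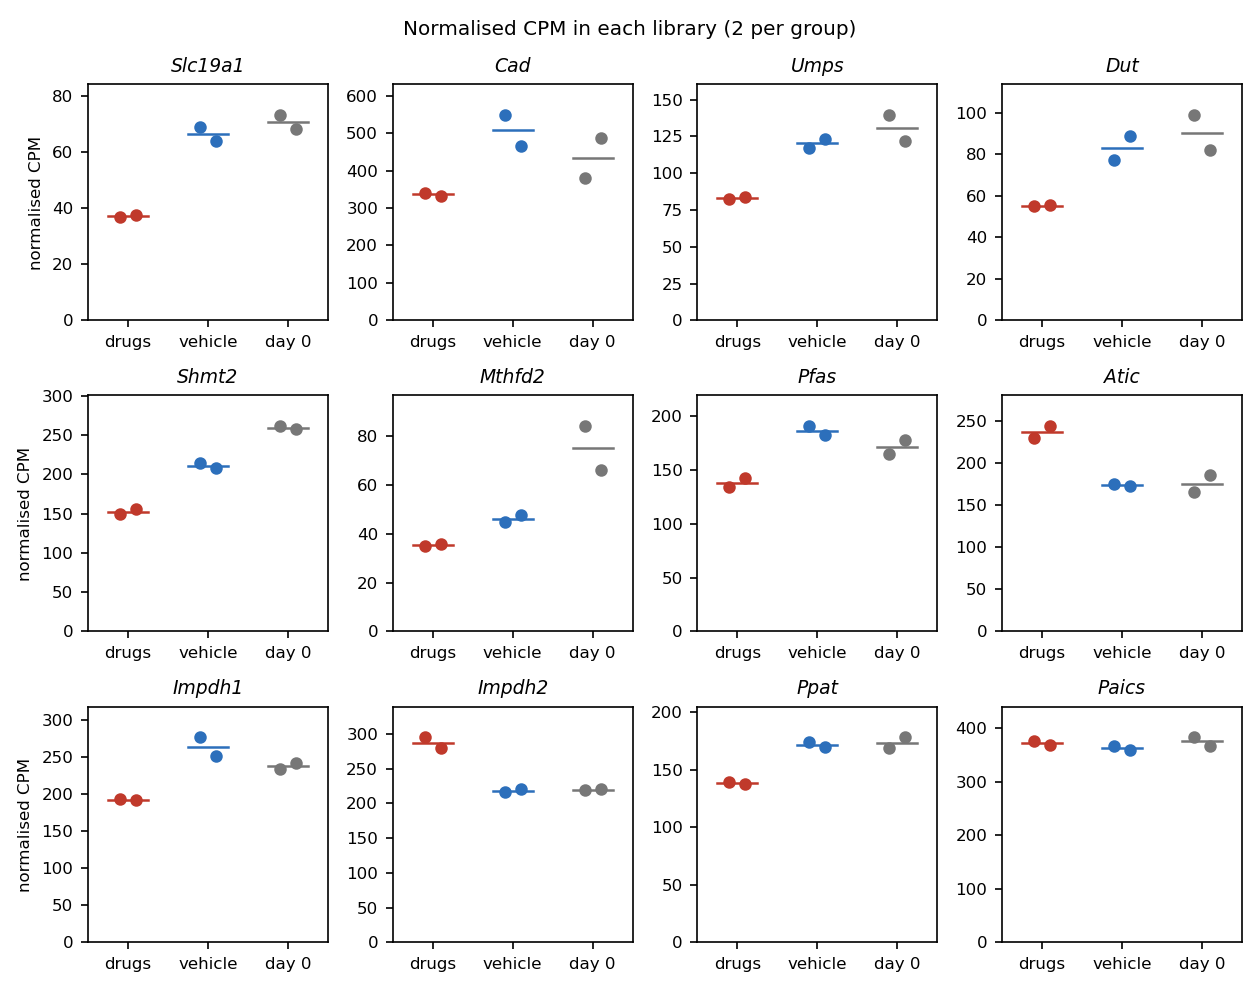
Normalised CPM (vertical axis, from 0) of 12 of the genes in each library, with the 3 drugs left, vehicle in the middle and day 0 right, points for libraries and bars for group means. Drug libraries were lowest for Slc19a1, Cad, Umps, Dut, Shmt2, Mthfd2, Pfas, Impdh1 and Ppat and highest for Atic and Impdh2, while Paics lay between 359.9 and 383.4 CPM.

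PRPP itself is made by Prps1 or Prps2, and these also differed. Prps1 had 61.7 and 63.6 CPM with the drugs, against 80.2 and 77.0 CPM with vehicle and 80.0 and 80.7 CPM at day 0, a fall of 20.3% against vehicle (log2 change -0.33 ± 0.0688, adjusted p = 0.003). Leaving out drug replicate 1 gave an adjusted p of 0.059. Prps2 had 104.6 and 104.2 CPM with the drugs, against 100.9 and 87.5 CPM with vehicle and 80.3 and 94.3 CPM at day 0. Its drug libraries were the 2 highest, yet the change against vehicle did not pass the test (0.15 ± 0.0889, adjusted p = 0.23), and that against day 0 did (0.26 ± 0.0887, adjusted p = 0.0298). The call against day 0 ended when either drug replicate or untreated replicate 1 was left out (adjusted p 0.125 to 0.231), and with DESeq2 (0.0701). The share of Prps1 in the summed level of the pair per kilobase was 52.1% and 52.9% with the drugs, against 59.4% and 61.9% with vehicle and 64.7% and 61.2% at day 0.

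**Figure D3:**
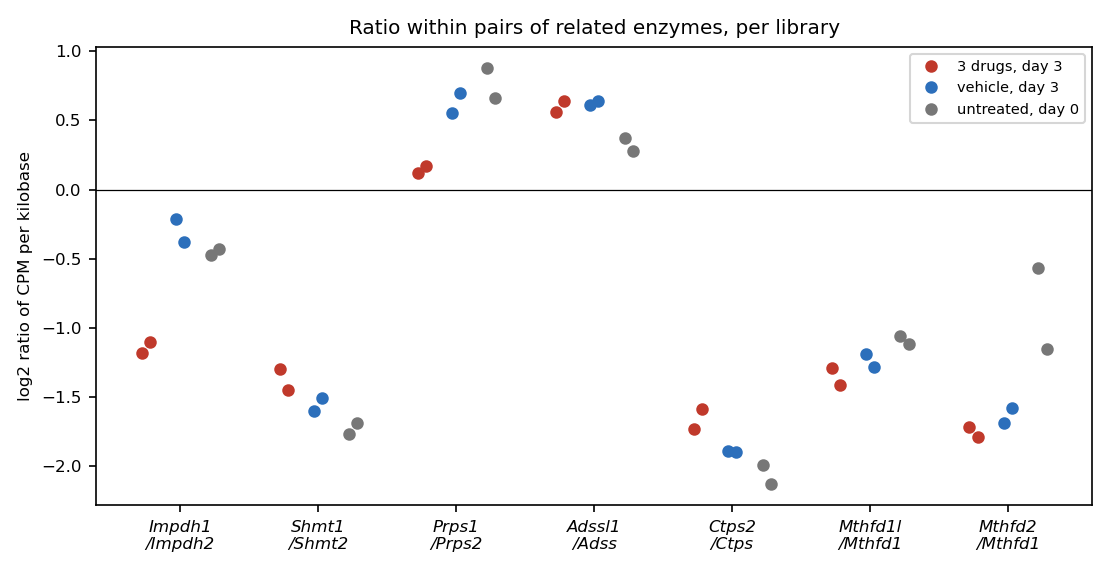
Log2 ratio of CPM per kilobase (vertical axis) within 7 pairs of related enzymes in each library, with the 3 drugs in red, vehicle in blue and day 0 in grey. The Impdh1 to Impdh2 ratio was -1.18 and -1.1 with the drugs, against -0.21 and -0.38 with vehicle and -0.47 and -0.43 at day 0, while the Adssl1 to Adss ratio was 0.56 and 0.64 with the drugs and 0.61 and 0.64 with vehicle.

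In pyrimidine synthesis the first and last enzymes of the UMP chain fell, and 3 of the 5 genes did so in all. Cad, the large enzyme that starts the ring (chromosome 5, 31054811 to 31078479), had 339.5 and 333.1 CPM with the drugs, against 547.6 and 466.6 CPM with vehicle and 380.0 and 486.2 CPM at day 0. Its drug libraries were close together and lowest, and the replicates of the other groups lay far apart. Cad fell by 33.7% against vehicle (-0.59 ± 0.11, adjusted p = 0.00131). Umps, which ends the chain at UMP (chromosome 16, 33955012 to 33967003), had 82.4 and 83.8 CPM with the drugs, against 117.4 and 123.3 CPM with vehicle and 139.3 and 121.5 CPM at day 0, a fall of 30.9% (-0.53 ± 0.0781, adjusted p = 0.000202). Dhodh, the mitochondrial enzyme between them, averaged 14.4 ± 0.835 CPM with the drugs and 16.9 ± 1.82 CPM with vehicle (SD, n = 2 each) and did not pass the test (-0.22 ± 0.129, adjusted p = 0.222).

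CTP synthase, which turns UTP into CTP, is also made from a pair of genes. Ctps had 76.7 and 74.0 CPM with the drugs, against 88.5 and 87.0 CPM with vehicle and 93.0 and 95.5 CPM at day 0, lowest with the drugs and highest at day 0. It fell by 14.2% against vehicle (-0.22 ± 0.0668, adjusted p = 0.0234). The adjusted p of Ctps was 0.12, 0.206 and 0.0884 when drug replicate 1, drug replicate 2 and vehicle replicate 1 were left out in turn, and 0.0988 with DESeq2. Ctps2 had 49.9 and 53.2 CPM with the drugs, against 51.6 and 50.3 CPM with vehicle and 50.6 and 47.2 CPM at day 0, and the groups overlapped (0.02 ± 0.0782, adjusted p = 0.891).

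Among the 7 genes of deoxynucleotide supply, 2 fell and 1 rose. Dut, which removes dUTP and gives the precursor of thymidylate (chromosome 2, 125247248 to 125259049), had 55.0 and 55.5 CPM with the drugs, against 77.2 and 88.7 CPM with vehicle and 98.9 and 82.1 CPM at day 0. It fell by 33.3% (-0.58 ± 0.0966, adjusted p = 0.00054). Rrm1, the large subunit of ribonucleotide reductase, had 339.3 and 335.9 CPM with the drugs, against 415.9 and 382.1 CPM with vehicle and 352.5 and 380.5 CPM at day 0 (-0.24 ± 0.077, adjusted p = 0.0299). The call of Rrm1 ended when drug replicate 1 (adjusted p = 0.185), drug replicate 2 (0.194) or vehicle replicate 1 (0.199) was left out. Rrm2, the small subunit, was lowest in the drug libraries, at 234.9 and 233.5 CPM against 245.1 and 274.0 CPM with vehicle and 246.3 and 274.8 CPM at day 0, without passing the test (-0.15 ± 0.0813, adjusted p = 0.187). Tk1, the salvage kinase for thymidine, was the gene that rose, with 30.5 and 28.1 CPM with the drugs, against 18.6 and 25.3 CPM with vehicle and 25.2 and 21.4 CPM at day 0. The vehicle replicates of Tk1 lay far apart, and the rise (0.42 ± 0.136, adjusted p = 0.0314) was 0.21 with an adjusted p of 0.273 when vehicle replicate 1 was left out. Its adjusted p was 0.185 and 0.0788 when drug replicates 1 and 2 were left out in turn, 0.0646 with DESeq2 and 0.119 with scaling by library totals. Of its exon bases, 6.4% are shared with Afmid.

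Tyms, the thymidylate synthase, had 97.9 and 103.8 CPM with the drugs, against 109.1 and 115.9 CPM with vehicle and 127.1 and 123.9 CPM at day 0. Its groups were ordered without overlap, but only the difference between the drugs and day 0 passed the test (drugs over day 0 -0.31 ± 0.0688, adjusted p = 0.0027, and drugs over vehicle -0.16 ± 0.0695, adjusted p = 0.107). Leaving out drug replicate 1 ended the call against day 0 (adjusted p = 0.0644). Dtymk, the next kinase toward dTTP, and Dck, the kinase that salvages deoxycytidine, did not pass the test (-0.15 ± 0.115 and -0.06 ± 0.0692). Of 25 other S-phase genes, such as the Mcm helicase subunits, 9 (36%) fell with the drugs against vehicle, while 13.8% of all tested genes fell. The other 16 did not pass the test, and the median of the 25 was -0.19. The proliferation marker Mki67 had 1326.4 and 1305.9 CPM with the drugs, against 1447.2 and 1311.9 CPM with vehicle (adjusted p = 0.589). The part of cell division in the falls above was not tested.

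Keeping the cells in vehicle until day 3 moved few of these genes. Against day 0, 2 of the 33 fell and 0 rose, while 7.74% of all tested genes were called, 3.99% lower and 3.75% higher, and the median log2 change was -0.03, against -0.02 over all tested genes. Scaling by library totals moved the share of rises among all calls of this comparison to 89%, against 48.5% with TMM. At an unadjusted p under 0.05, edgeR gave 3 falls and 1 rise among the 33, against 1515 falls and 1325 rises over all 11283 tested genes. DESeq2 with adjustment gave 2 falls and 0 rises among the 33, against 236 and 255 over all tested genes. Both falls were mitochondrial folate enzymes. Mthfd2 fell by 38.7% (log2 change -0.71 ± 0.103, adjusted p = 0.00145), and over all alternatives its change stayed between -0.87 and -0.52 with an adjusted p of at most 0.0181. Its day 0 replicates, at 84.1 and 66.1 CPM, lay far apart but were both above the other 4 libraries. Shmt2 fell by 18.7% (-0.30 ± 0.0677, adjusted p = 0.018), a call that ended when any library but untreated replicate 2 was left out (adjusted p 0.0546 to 0.0744) and with scaling by library totals (0.0789). Beside them, Atf4, a stress factor whose known targets include Mthfd2 and Shmt2, had 98.4 and 106.6 CPM with the drugs, 130.3 and 141.1 CPM with vehicle, and 255.0 and 191.0 CPM at day 0. It fell in both steps (vehicle over day 0 -0.72 ± 0.111, adjusted p = 0.00197, drugs over vehicle -0.40 ± 0.114, adjusted p = 0.0164), and its part in the results was not tested. Atf4 was among 18 genes listed as regulators. With the drugs against vehicle 33.3% of these fell and 11.1% rose, against 13.8% and 18.1% of all tested genes. Among them Mycn fell (-2.49 ± 0.196, adjusted p = 8.17e-07), while Myc (-0.10 ± 0.079, adjusted p = 0.361) and Max (-0.12 ± 0.0739, adjusted p = 0.259) did not pass the test. Their part was not tested either.

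Against day 0, the drug-treated cells had lower levels of 18 of the 33 genes and higher levels of 3, with 43.9% of all tested genes called, 21.2% lower and 22.7% higher. Rises made up 70.4% of all calls with library totals, against 51.7% with TMM. The 18 falls became 12 when drug replicate 1 was left out and 14 for drug replicate 2, and 14 of the 21 calls held in every fit that left out 1 library. The calls that did not hold were those of Prps2, Pfas, Impdh1, Gmps, Fpgs, Cad and Tyms. Falls over all tested genes also went down when either drug replicate was left out. This comparison shares its libraries with the other comparisons. Of the 18, Shmt2 and Mthfd2 also fell in both other comparisons, and 14 fell against vehicle without passing the test for vehicle over day 0. The remaining 2 were Fpgs (-0.33 ± 0.122, adjusted p = 0.0409) and Tyms. The call of Fpgs ended when either drug replicate or untreated replicate 1 was left out (adjusted p 0.119 to 0.356), with DESeq2 (0.154) and with library totals (0.205). Mthfd2 had the largest difference, 53% lower with the drugs than at day 0 (-1.09 ± 0.105, adjusted p = 3.89e-06), followed by Slc19a1 at 47.5% (-0.93 ± 0.0784) and Shmt2 at 41.2% (-0.77 ± 0.0683). The 3 higher genes were Atic (0.43 ± 0.0762), Impdh2 (0.39 ± 0.0693) and Prps2.

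**Figure D4:**
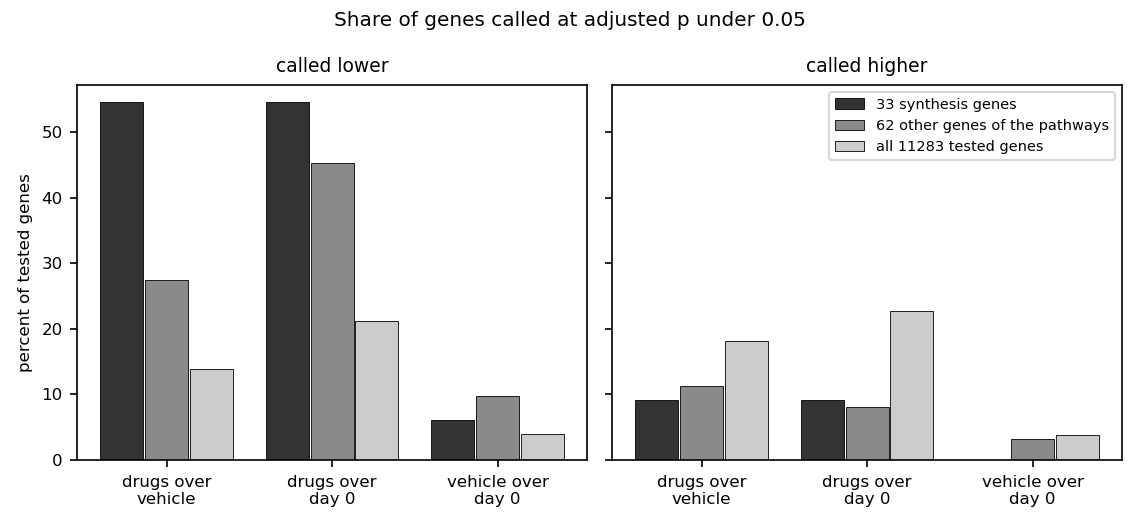
Percent of tested genes (vertical axis, from 0) that were called lower (left) and higher (right) in each comparison, for the 33 synthesis genes, 62 other genes of the same pathways and all 11283 tested genes. With the drugs against vehicle 54.5% of the 33 were lower, against 27.4% of the other pathway genes and 13.8% of all tested genes.

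The members also differ widely in level. With the drugs, Impdh2 had the highest mean level (176.8 CPM per kilobase), above Paics (156.5) and Rrm2 (107.4). With vehicle the order was Paics (152.7), Impdh2 (134.4) and Rrm2 (119.1), and at day 0 it was also Paics (157.9), Impdh2 (135.0) and Rrm2 (119.5). The fourth place was held by Atic with the drugs (90.5), by Impdh1 with vehicle (109.7) and by Shmt2 at day 0 (112.5). Dhodh had the lowest mean in each group, at 6.23 CPM per kilobase with the drugs, 7.27 with vehicle and 7.43 at day 0, and Fpgs the next lowest. The order of these means carries no test. Summed per kilobase, folate enzymes stood at 187.1 and 191.2 with the drugs, 245.3 and 242.4 with vehicle, and 276.6 and 282 at day 0, and pyrimidine enzymes at 116.2 and 115.9, 161.8 and 152.6, and 146.7 and 157.6 in the same groups. The AMP and GMP branch stood at 389.9 and 380.8 with the drugs, 382 and 376.8 with vehicle, and 362.4 and 371.1 at day 0.

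Around these routes, 80 other genes of folate, serine, salvage and nucleotide kinase metabolism were found, and 62 had enough counts to test. With the drugs against vehicle 17 fell (27.4%) and 7 rose (11.3%, median -0.12), against 13.8% and 18.1% of all tested genes. With vehicle against day 0, 6 fell (9.68%) and 2 rose (3.23%, median -0.12), against 3.99% and 3.75%. In the list of purine salvage and breakdown, 2 of 17 tested genes rose with the drugs against vehicle, 3 fell and 12 did not pass the test. These shares, 17.6% lower and 11.8% higher, were close to the 13.8% and 18.1% of all tested genes, so the list as a whole did not stand out. The 3 that fell were Ada, which deaminates adenosine (-0.98 ± 0.181, adjusted p = 0.00127), Pnp, which splits purine nucleosides (-0.30 ± 0.0934, adjusted p = 0.0285), and Nt5c2, a nucleotidase (-0.24 ± 0.0676, adjusted p = 0.0163). The 2 that rose were Xdh and Gda. Xdh, which oxidises hypoxanthine and xanthine and also mercaptopurine, had 76.5 and 78.0 CPM with the drugs, against 6.01 and 6.61 CPM with vehicle, and Gda, which deaminates guanine, had 1171.8 and 1202.3 CPM with the drugs, against 627.4 and 653.4 CPM with vehicle and 413.1 and 466.0 CPM at day 0. Gda rose in both steps (drugs over vehicle 0.89 ± 0.0833, adjusted p = 4.02e-06, vehicle over day 0 0.54 ± 0.0834, adjusted p = 0.00193). Slc28a2, a carrier of purine nucleosides, fell with the drugs (-1.88 ± 0.0916, adjusted p = 9.73e-09). Hprt, which salvages hypoxanthine and activates mercaptopurine, did not pass the test (-0.10 ± 0.0719, adjusted p = 0.311).

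Of the serine and folate genes next to the members, Phgdh, which starts serine synthesis, fell with vehicle against day 0 (-0.24 ± 0.066, adjusted p = 0.042), and Psat1, the next enzyme, did not pass the test in that step (-0.25 ± 0.0754, adjusted p = 0.0625). Aldh1l2, a mitochondrial folate enzyme, had 0.881 and 0.71 CPM with the drugs, 1.42 and 1.34 CPM with vehicle, and 8.14 and 4.16 CPM at day 0, a fall of 2.19 on the log2 scale for vehicle over day 0 (adjusted p = 0.00199). Qdpr, which recycles biopterin, fell in the same step (-0.32 ± 0.072, adjusted p = 0.0163).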

How the data were processed

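Polyadenylated RNA of 6 cultures was sequenced, 2 per group. The authors deposited read counts per gene without normalisation, in a table the labels call featurecount, with each gene's exon positions and its Length column, another value in bases, per the file headers. Per the submitters' processing notes, STAR 2.7.0f, deepTools 3.0.2 and the mm10 build were used. How strand and reads with several matches were treated, and the annotation release, are not stated there, so near copies and overlapping genes have uncertain counts. Positions are those of the table on mm10.

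Of 23337 genes, 11283 passed filterByExpr, the 33 members among them. The 6 libraries entered a single edgeR 4.0.16 model (R 4.3.3) with TMM scaling and the quasi-likelihood F test, which leaves 3 residual degrees of freedom. The common biological coefficient of variation was 0.0592, and the SE is the log2 change over the root of F. The procedure was tested on simulated data. Replicates varied by more than counting gives, and over the members chi-square per degree of freedom was 1.74 with the drugs, 6.12 with vehicle and 13 at day 0. Levels per kilobase divide CPM by the table's gene length. Alternatives were DESeq2 1.42.0, other scalings, no filter, 2-group fits, a replicate block, a minimum of 1.2-fold and leaving out each library.

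The members, lists and tests were chosen with earlier results of these data known. Library values are given for the 2 members of each role group with the smallest p against vehicle, the 1 with the smallest p for vehicle over day 0, and gene pairs that differed. Ppat, Paics, Tk1, Rrm2, Mki67, Atf4, Myc, Mycn, Max, Cpa3, Mcpt8, Ada, Pnp, Nt5c2 and the E-box pattern were picked after their values were seen. So were the markers Mmp8, Ccr2, Cx3cr1, Hdc, Gata2, Igll1, Ebf1, Cd79a, Cd79b, Itga2b, Vim and Pecam1, and the progenitor markers given with their change. Of 81 other pathway genes listed, 80 were found, and some listed genes are not reported here by name.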

Additional observations from a re-analysis of the deposited data

How the results depend on the processing

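Against vehicle, a test against a minimum of 1.2-fold gave 414 falls and 1175 rises over all tested genes, in place of 1560 and 2041. The 18 falls of the members became 7 and their 3 rises 1 in that test. Without one library the falls ranged from 10 (drug replicate 1) to 18 and the median from -0.28 to -0.22, and with library totals the median was -0.27. Of the 21 calls, 8 held in all alternatives, namely Pfas, Atic, Impdh1, Shmt2, Slc19a1, Cad, Umps and Dut, and none changed sign. Against day 0, the 1.2-fold minimum gave the drug group 934 falls and 1476 rises over all tested genes, in place of 2394 and 2564. Its 18 falls among the members became 8 and its 3 rises 1, and the median of the members was -0.21 with library totals. Without one library these falls ranged from 12 to 19. For vehicle over day 0, the 2 falls became 1 with library totals, with only the 2 groups, with the replicate block and with the 1.2-fold minimum, and ranged from 1 to 2 without one library. The 0 rises became 6 with library totals, 1 without the filter, and 0 to 1 without one library, and the median was 0.09 with library totals and -0.04 to -0.01 without one library. Library totals moved the median of all tested genes from -0.02 to 0.1 in that comparison and gave 1741 rises and 216 falls over all genes in place of 423 and 450, while DESeq2 gave 255 and 236. Falls over all genes in that comparison were 259 with only the 2 groups, 261 with the replicate block and 130 with the 1.2-fold minimum. For drugs over day 0 library totals gave 3141 rises and 1321 falls in place of 2564 and 2394. Rn45s, the ribosomal RNA precursor, took 14.62% to 16.12% of day 3 counts, against 20.45% and 24.64% at day 0. Deviations of libraries with the same replicate number correlated at 0.112 (drugs and vehicle), -0.281 (vehicle and day 0) and -0.0725 (drugs and day 0). The labels do not say whether equal numbers mark a shared batch, and with 2 libraries a group these correlations cannot settle it. The main fit therefore did not pair libraries by number. The replicate block left 15 falls and 2 rises against vehicle, where Gmps (adjusted p = 0.0658), Ctps (0.052), Rrm1 (0.0718) and Tk1 (0.0663) lost their calls, and 17 falls and 2 rises against day 0. Over all tested genes it left 1183 falls and 1775 rises against vehicle, and 2031 and 2296 for the drugs against day 0. Leaving out a library can leave 1 in a group, which is then assumed to vary like the others. Changes as small as those of Gmps, Ctps and Rrm1 are at the limit of 2 libraries a group.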
